A study of Homo sapiens with 14 samples.

Results

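The miRNAs described here are the 4 mature 5p miRNAs of the families encoded among the human HOX genes: miR-10a-5p, miR-10b-5p, miR-196a-5p and miR-196b-5p. They were chosen by name from a raw count table of 2632 miRNAs. The rule used no measured value, but earlier results of these data were known when it was set. All 4 names are in the table. miR-10a-5p held 349 counts over the 14 libraries, miR-10b-5p held 4, miR-196b-5p held 2 and miR-196a-5p held 0.

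HOX genes encode transcription factors that give cells of the embryo their place along the head-to-tail axis, and they lie in clusters in which the order of genes follows the order of their expression along that axis. miR-10 genes lie beside the HOX4 genes, towards the anterior end of a cluster, and miR-196 genes lie beside the HOX9 and HOX10 genes, towards the posterior end. Both families are therefore known as marks of axial position, and miR-196 is known to repress HOX mRNAs such as HOXB8.

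The libraries hold miRNAs of extracellular vesicles (EVs, small membrane-bound particles shed into the medium) from epicardial cells, which cover the heart, and from their pro-epicardial precursors. Every group was derived from the established embryonic stem cell line hES-2, and all groups started from thawed pro-epicardial cells, so the table holds vesicle RNA of a single line and no cellular RNA. SB cells, named mature epicardial, were kept for 8 days in 6 µM SB-431542, which inhibits TGF-β receptors (4 libraries). NT cells, named pro-epicardial, had nothing added (3 libraries). For TGFb, 5 ng/ml TGF-β1 was present over the first 4 days only (4 libraries), and for FGF, 10 ng/ml bFGF (basic FGF) was present throughout the 8 days (3 libraries); both are named stimulated epicardial cells. From day 4 every group was given medium depleted of vesicles with a 100 kDa filter, and conditioned medium was taken on days 6 and 8 after 48 h each.

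The libraries were shallow, with 115 to 14862 counts in all and 40 to 274 miRNAs detected. Levels are therefore given as shares of a library's counts, with 95% Wilson intervals for single libraries. These intervals, and the limit of 3 counts that a count of 0 allows, cover counting error only. The labels do not say whether replicates came from separate cultures, so a p-value measures the spread between these libraries, which may be technical. Of 8 miRNAs typical of undifferentiated pluripotent cells, 2 had counts (miR-302a-3p and miR-372-3p), and the list held 5 counts in all; miR-302b-3p, miR-302c-3p, miR-302d-3p, miR-367-3p, miR-371a-5p and miR-373-3p were at 0. In bulk vesicle RNA, fewer vesicles or cells of a kind and less of a miRNA in each cannot be told apart.

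The mature sequences show which of these miRNAs could share targets, since a miRNA finds its targets mainly through its seed (bases 2 to 8, in capitals). They are RefSeq's, matched by name on GRCh38.p14 for 3 of the 4 miRNAs, and each is written 5′ to 3′.
miR-10a-5p: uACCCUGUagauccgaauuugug
miR-196a-5p: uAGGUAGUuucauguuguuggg
miR-196b-5p: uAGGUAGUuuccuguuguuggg
miR-196a-5p and miR-196b-5p have the same seed and differ by 1 base, A12C counted from the 5′ end (miR-196a-5p's base first), and no other miRNA of the RefSeq table has that seed. miR-10b-5p had no mature sequence in the RefSeq table, so its seed was not compared with that of miR-10a-5p. It is described by its counts.

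The genes of these miRNAs lie in all 4 HOX clusters (GRCh38). MIR10A is at chr17:48579838-48579947 on the minus strand, inside the HOXB3 gene and 1.49 kb from HOXB4, and GENCODE 29 places it over an exon of HOXB4 on the same strand. MIR10B is at chr2:176150303-176150412 on the plus strand, 1.14 kb from HOXD4, within the GENCODE span of HOXD3 and outside its exons. miR-196a-5p is made from a pair of genes, so its reads cannot be assigned to either. MIR196A1 (chr17:48632490-48632559, minus strand) lies 6.13 kb from HOXB9 within the span of HOXB7, and MIR196A2 (chr12:53991738-53991847, plus strand) lies 1.46 kb from HOXC10 within the span of HOXC6. MIR196B (chr7:27169480-27169563, minus strand) lies 1.04 kb from HOXA10 and overlaps an exon of HOXA9 on its strand and an exon of HOXA10-AS on the other.

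**Figure D1:**
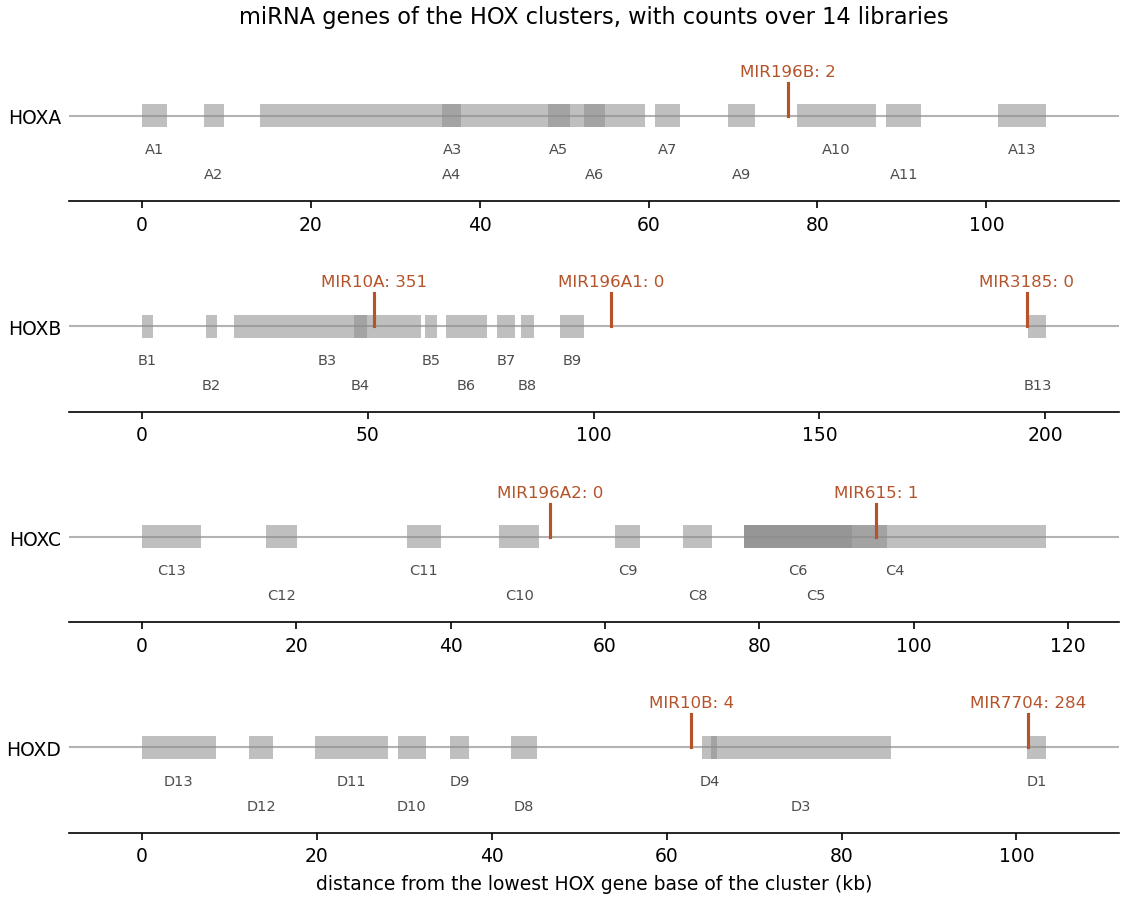
HOX genes (grey bars, darker where they overlap; the letter and number below each bar are its HOX name) and miRNA genes (orange lines) of the 4 clusters, in kb from the lowest base of each cluster, with the summed raw counts of each gene's mature miRNAs over 14 libraries. MIR10A held 351 counts and MIR7704, in HOXD1, held 284; the other 6 genes held 4 or fewer.

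miR-10a-5p was the member that the vesicle RNA carried at a measurable level, at a mean share of 0.679% ± 0.354 (SD, n = 14). It had counts in 13 of 14 libraries and was 27th by mean share among the 447 miRNAs detected. Within single libraries it ranked between 13th (NT replicate 3) and 48th (TGFb replicate 1) by count. The SD between libraries of a group, 0.249 to 0.587 percentage points, was larger than the distance between any group means.

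In NT, miR-10a-5p took 84 of 14862 counts in replicate 1 (0.565%, interval 0.457 to 0.699), 102 of 9462 in replicate 3 (1.08%, 0.889 to 1.31) and 5 of 1010 in replicate 4 (0.495%, 0.212 to 1.15). The intervals of replicates 1 and 3, the deepest libraries of the study, did not overlap, so their difference was larger than counting error. In SB it took 2 of 345 counts in replicate 1 (0.580%), 2 of 179 in replicate 2 (1.12%), 23 of 3826 in replicate 3 (0.601%, 0.401 to 0.900) and 10 of 1286 in replicate 4 (0.778%, 0.423 to 1.43). All 4 SB libraries lay within the range of the NT libraries or just above it, and no pair of their intervals was separate.

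In TGFb, miR-10a-5p took 2 of 1418 counts in replicate 1 (0.141%, interval 0.0387 to 0.513), 1 of 231 in replicate 2 (0.433%), 53 of 7478 in replicate 3 (0.709%, 0.542 to 0.926) and 30 of 2770 in replicate 4 (1.08%, 0.760 to 1.54). TGFb replicate 1 was the lowest library in which it was detected, and its interval was separate from those of replicates 3 and 4. In FGF it took 0 of 115 counts in replicate 2, which allows a share of up to 2.61%, 25 of 3241 in replicate 3 (0.771%, 0.523 to 1.14) and 10 of 868 in replicate 4 (1.15%, 0.627 to 2.11). The FGF library at 0 is the shallowest of all, and its limit lies above every share measured in the other libraries.

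**Figure D2:**
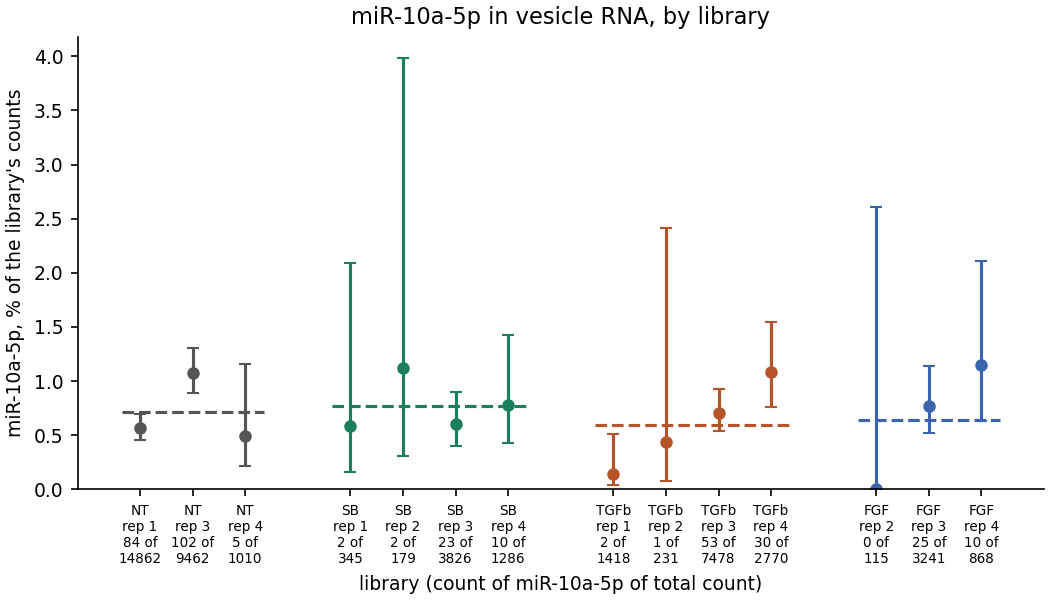
Share of each library's raw counts that was miR-10a-5p (y axis, percent), by group and replicate, with the count and the library total under each point. Points are single libraries, bars are 95% Wilson intervals (for the library at 0, the limit of 3 counts) and dashed lines are group means; the libraries of the 4 groups share one range, from 0 to 1.15%.

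By mean share the order was SB (0.769% ± 0.249, SD, n = 4), NT (0.713% ± 0.318, n = 3), FGF (0.641% ± 0.587, n = 3) and TGFb (0.591% ± 0.401, n = 4). The FGF mean rests on few libraries: without replicate 2, the library at 0, it was 0.962%, the highest of the 4 groups, and without replicate 4 it was 0.386%. No neighbours in that order differed beyond their spread, and the libraries of all 6 pairs of groups overlapped. With counts pooled over libraries, which lets the deepest library weigh most, the order became FGF (35 of 4224, 0.83%), NT (191 of 25334, 0.754%), TGFb (86 of 11897, 0.723%) and SB (37 of 5636, 0.656%). In the authors' deposited table of adjusted values, the mean CPM (counts scaled to one common total) of miR-10a-5p was 11409 in SB, 7494 in NT, 6113 in TGFb and 5848 in FGF, which orders the last 2 groups the other way round from the raw shares.

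The comparisons between groups ask whether vesicles of the mature or stimulated epicardial cells carry another level of these miRNAs than those of pro-epicardial cells. They were made with edgeR's quasi-likelihood test on the raw counts, with Benjamini-Hochberg adjustment over the 47 miRNAs that passed its filter on low counts. miR-10a-5p was the 1 member of the 4 that passed. Over the 4 groups its adjusted p was 0.999, and its p ranked 46th of 47; 0 of the 47 miRNAs (0%) passed the threshold of 0.05, 5 had an unadjusted p under it, and DESeq2 called 2. miR-10a-5p was therefore among the miRNAs with the least evidence of a difference between conditions. The count over all miRNAs moved with the setting (4 of 47 with the replicate number as a block, 4 of 53 without NT replicate 4, and 4 or 5 of 40 in the authors' adjusted values), and miR-10a-5p was called in none of these.

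Against NT, the log2 fold change of miR-10a-5p was −0.22 in SB (SE 0.86, adjusted p = 0.930), −0.14 in TGFb (SE 0.82, adjusted p = 0.955) and −0.28 in FGF (SE 0.91, adjusted p = 0.892). None passed the threshold, which 2.13% of tested miRNAs (1 of 47) passed in SB against NT, 0% in TGFb against NT and 2.13% in FGF against NT. At an unadjusted p under 0.05 there were 6, 2 and 8 miRNAs in these 3 comparisons, and DESeq2 called 3, 0 and 1. Without NT replicate 4, 9 of 53, 1 of 53 and 8 of 53 miRNAs passed, miR-10a-5p not among them. The 95% intervals were wide: the fold of SB over NT lay between 0.255 and 2.91, that of TGFb over NT between 0.282 and 2.93, and that of FGF over NT between 0.226 and 2.99. A 3-fold rise and a 4-fold fall lay outside the SB and TGFb intervals, and changes inside the intervals are not excluded by these libraries.

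Among the other 3 pairs, which share libraries with those above, the log2 fold change was 0.08 in TGFb against SB (SE 0.82, adjusted p = 0.994), −0.07 in FGF against SB (SE 0.92, adjusted p = 0.964) and 0.14 in TGFb against FGF (SE 0.87, adjusted p = 0.970). In these pairs 0% of the 47 miRNAs passed, with 4, 3 and 7 miRNAs at an unadjusted p under 0.05 and 0, 1 and 1 called by DESeq2. None of the 6 differences was as large as its standard error. No direction is therefore given for miR-10a-5p in any pair.

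**Figure D3:**
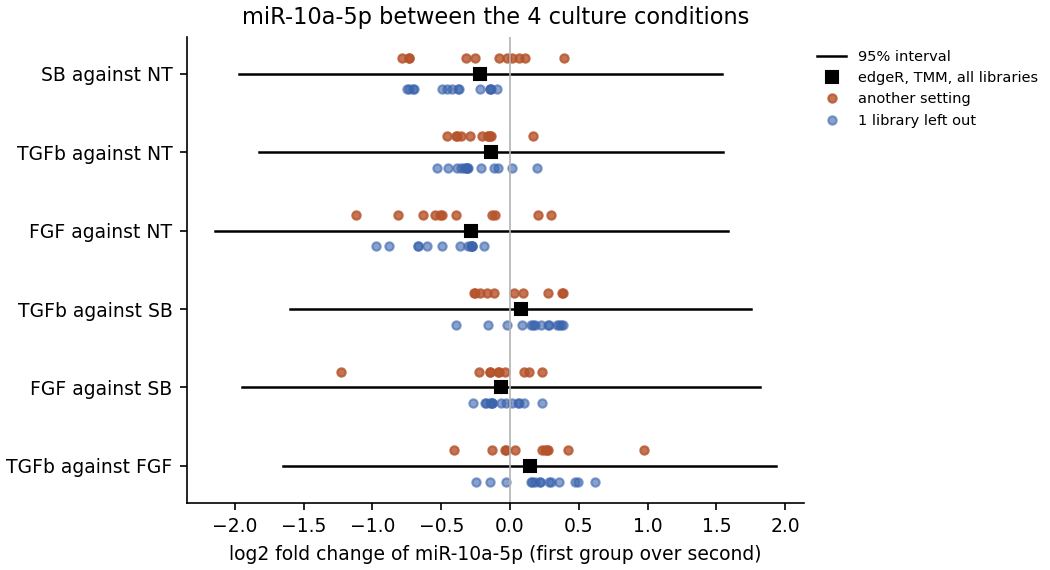
log2 fold change of miR-10a-5p in the 6 pairs of conditions (first group over second): black squares and lines are the edgeR estimates with their 95% intervals, orange points above each line are other normalizations, tests and filters, and blue points below are fits without 1 library. Every 95% interval spans 0, and in each pair the points of both kinds together, which include scalings that shift all miRNAs, fall on both sides of 0.

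Set side by side within the replicate numbers of the labels, the shares gave no common direction either. miR-10a-5p was higher in SB than in NT in 2 of 3 shared numbers, higher in TGFb than in NT in 1 of 3, and higher in FGF than in NT in 1 of 2. TGFb was above SB in 2 of 4 numbers, FGF above SB in 2 of 3, and TGFb above FGF in 1 of 3. Shares ran from 0.141% to 0.580% over the 3 libraries numbered 1, from 0 to 1.12% in those numbered 2, from 0.601% to 1.08% in the 4 numbered 3 and from 0.495% to 1.15% in the 4 numbered 4.

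Relative to the other tested miRNAs, miR-10a-5p varied somewhat less than the median. Its standard deviation of log2 CPM over the 14 libraries was 1.14, against a median of 1.41 over the 47 tested miRNAs, and 13 of these varied less. Within groups its standard deviation was 1.21 (median 1.37). Its raw count was 2 or less in the 4 libraries under 500 counts and 84 or more in the 2 deepest, both of NT, so raw counts between libraries are compared only as shares.

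**Figure D4:**
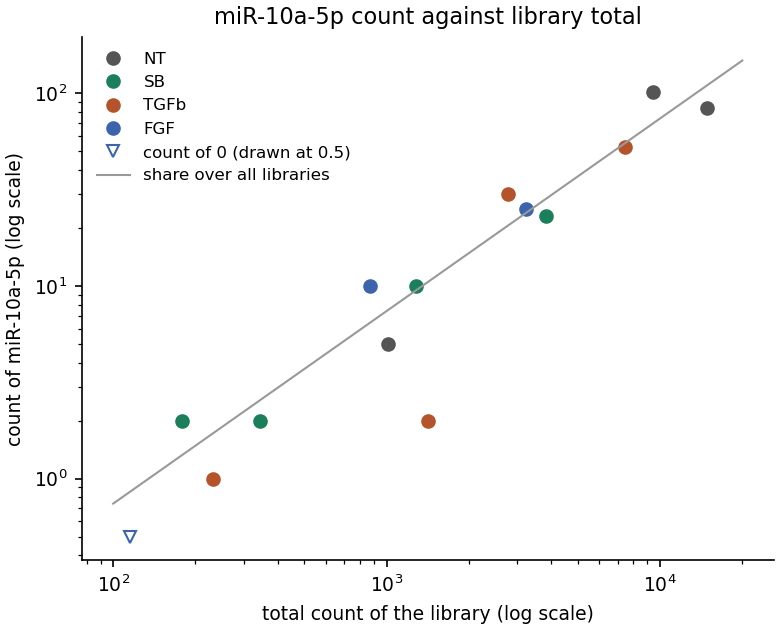
Raw count of miR-10a-5p against the total count of the library, both on log scales, for 14 libraries coloured by group. The grey line is the share over all libraries (0.741%), and the open triangle is the FGF library with a count of 0, drawn at 0.5 because a log axis has no 0; TGFb replicate 1, at 2 of 1418 counts, lies farthest below the line among libraries with a count.

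The miRNAs whose log2 CPM followed miR-10a-5p most closely over the 14 libraries were miR-320c (Pearson r = 0.899, Spearman rho = 0.811), miR-1307-3p (0.772 and 0.490) and miR-148b-3p (0.637 and 0.567). The median r of all other tested miRNAs was 0.11. Over the 10 libraries of at least 500 counts the closest were miR-191-5p (0.764 and 0.612), miR-320c (0.760 and 0.709) and miR-103a-3p (0.649 and 0.382). These are descriptions over libraries that share depth and composition, so they carry no test, and miR-320c was the 1 miRNA among the closest 3 in both sets of libraries.

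The hairpin of MIR10A shows where the measured RNA comes from. It folds back on itself, and either arm (in capitals) can be cut out as a mature miRNA.
MIR10A: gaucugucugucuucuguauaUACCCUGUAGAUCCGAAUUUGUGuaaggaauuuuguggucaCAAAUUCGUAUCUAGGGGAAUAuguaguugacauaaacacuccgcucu
The 5p arm held 349 of the hairpin's 351 counts (99.4%, interval 97.9 to 99.8). The 3p arm, miR-10a-3p, had 1 count in NT replicate 1 and 1 in NT replicate 3, and was at 0 in the other 12 libraries.

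miR-10b-5p, the paralog from the HOXD cluster, was close to the limit of detection. It had 2 of 14862 counts in NT replicate 1 (0.0135%), 1 of 231 in TGFb replicate 2 (0.433%, interval 0.0765 to 2.41) and 1 of 2770 in TGFb replicate 4, and 0 in the other 11 libraries. Of the 353 counts of the miR-10 pair, 98.9% (97.1 to 99.6) were miR-10a-5p. The balance leaned to miR-10a-5p in every group: 191 of 193 counts in NT, 37 of 37 in SB, 86 of 88 in TGFb and 35 of 35 in FGF. The 2 miRNAs are near-identical, so reads could be split between them by the authors' counting, and the balance is that of their table.

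With so few counts miR-10b-5p did not enter the main edgeR fit. Its mean shares were compared by two-sided exact permutation tests, 8 in all with the miR-196b-5p tests below. Its mean share was 0.117% ± 0.211 in TGFb (n = 4) and 0.00449% ± 0.00777 in NT (n = 3), and p was 0.571 (adjusted p = 0.762 over the 8 tests). Without TGFb replicate 2 the TGFb mean was 0.0120%. Against SB and FGF, both at 0, the exact p in TGFb was 0.429 and 0.571. With counts in so few libraries none of the 8 exact tests could pass the threshold: the lowest p that any arrangement of the values allows is 0.0571 in TGFb against NT and between 0.286 and 1 in the other 7. These p-values therefore show neither a difference nor its absence.

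miR-196a-5p, from genes beside HOXB9 and HOXC10 in the HOXB and HOXC clusters, had no count in any library. Over all libraries 0 of 47091 counts allows a share of up to 0.00637%, and by group the limit was 0.0118% in NT, 0.0252% in TGFb, 0.0532% in SB and 0.0710% in FGF. In NT, the group with the most counts, the measured share of miR-10a-5p was 0.754%, against this limit of 0.0118% for miR-196a-5p.

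miR-196b-5p, from the posterior part of the HOXA cluster, had 1 of 345 counts in SB replicate 1 (0.290%) and 1 of 179 in SB replicate 2 (0.559%). It was at 0 in SB replicates 3 and 4 and in all libraries of the other 3 groups. Both libraries with a count are among the 4 that hold under 500 counts, where a single count makes a large share. The mean share in SB was 0.212% ± 0.268 (n = 4), an SD larger than the mean. The exact permutation p was 0.571 against NT, 0.429 against TGFb and 0.571 against FGF (adjusted p = 0.762 each), values set by there being 2 libraries with a count. SB pooled gave 2 of 5636 counts (0.0355%, interval 0.00973 to 0.129), and the limit for 0 of 25334 in NT is 0.0118%.

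Set in the order of the clusters, the genes beside HOX4 were MIR10A (HOXB) and MIR10B (HOXD), and the genes beside HOX9 and HOX10 held 0 (miR-196a-5p) and 2 (MIR196B, HOXA). MIR10A and MIR10B lie beside genes of the same HOX number, and their counts were 351 and 4. The members were not tested against one another, since library preparation can capture miRNAs of different sequence to different degrees.

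The other miRNA genes that RefSeq places between the outermost genes of a HOX cluster bring the number of mature miRNAs to 13, of which 6 had counts. miR-10b-3p, miR-196a-3p, miR-196a-1-3p, miR-196b-3p, miR-615-5p and miR-3185 were at 0. miR-615-3p, from within the spans of HOXC4 and HOXC5, had 1 count, in NT replicate 3. Together the 13 held 642 counts (1.36% of all), of which miR-10a-5p made up 54.4% and miR-7704 nearly all of the rest. That pooled figure weighs the deepest libraries most: miR-10a-5p made up 71.8% and 82.9% in NT replicates 1 and 3. In the 4 SB libraries it made up 9.09% to 22.8%, and over all libraries 0 (FGF replicate 2) to 100% (TGFb replicate 3 and FGF replicate 3). By mean share over the 14 libraries miR-7704 was higher, at 1.94% ± 2.17 against 0.679% ± 0.354 for miR-10a-5p.

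miR-7704, whose gene (chr2:176188843-176188901, plus strand) overlaps an exon of HOXD1 on its own strand and an exon of the antisense RNA HAGLR on the other, is no member of the miR-10 or miR-196 family and is described because its counts were seen to be high. Its share was 0.202%, 0.201% and 1.78% in NT replicates 1, 3 and 4, and 5.51%, 3.91%, 2.04% and 2.64% in SB replicates 1 to 4. In TGFb it was 1.76%, 0, 0 and 1.44% in replicates 1 to 4, and in FGF it was 6.96% (8 of 115 counts), 0 and 0.691% in replicates 2 to 4. Every SB library lay above every NT library, which held for 2.13% of the tested miRNAs (1 of 47, miR-7704 itself). The edgeR log2 fold change of SB over NT was 2.31 (SE 1.61, adjusted p = 0.456), so the difference did not pass the test. It was 3.66 without NT replicate 4, 1.60 without NT replicate 3 and 1.10 with the log10 library total as a covariate, and passed the test in none of these. In TGFb replicate 3, 0 of 7478 counts allows a share of up to 0.0401%, below the intervals of TGFb replicates 1 and 4. In FGF replicate 3, 0 of 3241 allows up to 0.0926%, below the intervals of both other FGF libraries.

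miRNAs of the miR-99 and miR-100 kind resemble miR-10 over much of their length but come from genes outside the HOX clusters, and they are shown to set the seeds (in capitals) side by side with that of miR-10a-5p above.
miR-99a-5p: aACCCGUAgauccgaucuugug
miR-99b-5p: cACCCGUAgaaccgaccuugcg
miR-100-5p: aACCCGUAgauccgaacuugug
None has the miR-10a-5p seed. The edit distance (bases changed, added or removed) from miR-10a-5p is 4 for miR-99a-5p, 6 for miR-99b-5p and 3 for miR-100-5p. miR-99b-5p held 1772 counts at a mean share of 2.83% ± 1.22 (n = 14), above miR-10a-5p, whereas miR-100-5p, the closest in sequence, held 23 counts and miR-99a-5p held 9. Over the 14 libraries the log2 CPM of miR-99b-5p correlated with that of miR-10a-5p at r = 0.401 (rho = 0.319), and over the 10 deeper libraries at r = 0.139.

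Lists of miRNAs that mark other possible sources moved between libraries beside these values. The serum and red-cell list summed to 0.161% to 2.18% in NT, 1.52% to 4.47% in SB, 0.348% to 1.55% in TGFb and 1.74% to 4.72% in FGF. Its counts came from miR-16-5p, miR-122-5p, miR-486-5p and miR-223-3p (4 of 7), with miR-451a, miR-144-3p and miR-150-5p at 0 in every library. miR-223-3p was also at 0 in NT, and in TGFb 2 of the 7 had counts, miR-16-5p and miR-122-5p. The mesenchymal list summed to 0 to 0.891% in NT, 0.131% to 1.68% in SB, 0.0705% to 1.30% in TGFb and 2.07% to 6.96% in FGF. Over all libraries 5 of its 5 miRNAs had counts, but by group 2 did in NT, 3 in SB, 4 in TGFb and 4 in FGF. miR-214-3p was at 0 in NT, SB and FGF, miR-199a-5p in NT, SB and TGFb, and miR-145-5p in NT. The epithelial list summed to 0.0404% to 1.98% in NT, 0 to 1.71% in SB, 0.147% to 1.30% in TGFb and 0.617% to 2.61% in FGF. Over all libraries 7 of its 7 miRNAs had counts, but 6 did in NT and 6 in SB, with miR-200a-3p at 0 in both. Their part in the levels of the HOX-cluster miRNAs was not tested.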

How the data were processed

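miRNAs of EVs were sequenced in 14 samples. The labels' protocols name precipitation by polyethylene glycol, the miRNeasy Micro kit for RNA and the QIAseq kit for miRNA libraries. The submitters' processing notes name the build GRCh38; the aligner, miRNA annotation and use of molecular identifiers are not given in the sources used here, so whether reads or identifiers were counted is unknown. The raw table deposited by the authors holds whole-number counts with no normalization, and all main results use it. A second deposited table holds adjusted values, treated as a score because no header or label says how the authors made them, and the authors' mean CPM per group. The authors' 14 CPM columns of single libraries were not used, nor were 2 lines that name no miRNA.

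Shares are counts over the library's total, with 95% Wilson intervals (SciPy 1.17.1). Groups came from the labels. The counts of all 14 libraries entered 1 fit in edgeR 4.0.16 (R 4.3.3; TMM, glmQLFit with robust estimation, filterByExpr by group, min.count 10), with Benjamini-Hochberg adjustment within each comparison and a threshold of 0.05. The standard error is the absolute log2 fold change over the square root of F. miRNAs that failed the filter were compared by exact permutation tests of mean shares. The fit was tested on simulated data. Log2 CPM used a prior count of 2.

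Named miRNAs are the 4 members, the other mature miRNAs of genes within HOX clusters (RefSeq), the miR-99 and miR-100 relatives, the 3 most correlated miRNAs, and lists for pluripotent, serum and red, mesenchymal and epithelial cells. The members and lists were chosen with earlier results of these data known. Alternatives were RLE factors, library size, DESeq2 1.42.0, no filter, the replicate block, adjusted values (limma 3.58.1 or edgeR), libraries of at least 500 counts, only the groups compared, log10 total as a covariate and each library left out; totals over all miRNAs were added after the data were seen.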

Additional observations from a re-analysis of the deposited data

Results flagged for a closer look

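miR-10b-5p in TGFb replicate 2, at 0.433%, stood apart from the other 3 TGFb libraries: its gap to the next made up 0.917 of the group's whole range. The share rests on 1 of 231 counts, in the shallowest TGFb library. Of 4 sets of 4 libraries examined in this way, 1 stood apart, and chance alone nominally gives about 1 in 20. That rate is for values that vary smoothly. Here the counts were 0 or 1 in libraries of unequal depth, so no excess over chance is read from the flag.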

How the results depend on the processing

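miR-10a-5p passed the threshold in no comparison under any alternative run. The exact tests of miR-10b-5p and miR-196b-5p could not pass it under any alternative, so they say nothing on stability. The log2 fold change of miR-10a-5p ran from −1.23 to 0.97 over 148 alternatives, with adjusted p from 0.451 to 1.00, and changed sign in 32. In SB against NT it was 0.014 with RLE factors, 0.063 with library size only, 0.11 with limma on the adjusted values and 0.39 with the log10 total as a covariate. With that covariate it was 0.17 in TGFb against NT, 0.30 in FGF against NT, −0.22 for TGFb over SB and −0.13 for TGFb over FGF. With library size only it was 0.20 for FGF over NT, −0.26 for TGFb over SB, 0.14 for FGF over SB and −0.40 for TGFb over FGF. In TGFb against SB it was −0.17 with RLE factors, −0.12 with DESeq2 and −0.25 with limma on the adjusted values, and in TGFb against FGF −0.028 with RLE factors and −0.035 with DESeq2. In FGF against SB it was 0.23 in libraries of at least 500 counts and 0.10 with totals over all miRNAs. RLE factors, library size only, DESeq2 and totals over all miRNAs shifted the median of all tested miRNAs by −0.64 to 0.41. Relative to that shift, 0 of these 24 values changed sign, against 11 as fitted. Such scalings mostly move all miRNAs together, so this outcome was largely fixed in advance and is no measure of stability. The cause of the other 21 sign changes was not tested. Without 1 library each, it ran from −0.75 to −0.09 in SB against NT, −0.53 to 0.20 in TGFb against NT, and −0.97 to −0.19 in FGF against NT; against SB it ran from −0.39 to 0.39 for TGFb and −0.27 to 0.23 for FGF, and for TGFb over FGF from −0.25 to 0.62. The mean share of miR-10a-5p in SB was 1.14% in the adjusted values, against 0.769% in the raw counts. Fits of only the 2 groups compared gave no value for miR-10a-5p in TGFb against SB and FGF against SB, where it did not pass the filter.

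Same-numbered libraries deviated together at a mean r of 0.307 over 18 pairs, above 0.1 in 15 and down to 0.00574 in the other 3. Since not every pair passed 0.1, the main fit has no block, but most pairs did pass. In SB, TGFb and FGF the library numbered 2 was the shallowest (179, 231 and 115 counts). The library numbered 3 was the deepest of these groups (3826, 7478 and 3241 counts), whereas in NT it was replicate 1 (14862). Whether a shared number marks a pairing was not tested, so the fit with a block is given beside the main fit. With the replicate block, the log2 fold change of miR-10a-5p was −0.32 in SB, −0.29 in TGFb and −0.55 in FGF against NT, 0.03 in TGFb and −0.23 in FGF against SB, and 0.26 for TGFb over FGF, and 0 members were called. The count over all 47 miRNAs went from 0 to 4 over the 4 groups, 1 to 2 in FGF against NT, 0 to 3 in TGFb and 0 to 1 in FGF against SB, and 0 to 2 for TGFb over FGF.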
